A study of Mus musculus with 2 samples.

Results

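Chondrocytes rich in acute-phase transcripts made up 126 of the 13460 barcodes that passed filtering in library MGJ of a mouse fracture callus, 0.936% of that library (95% Clopper-Pearson interval 0.780 to 1.11), and 0 of the 7806 in library MGJ2. The whole series held 22304 deposited barcodes. These cells were selected on measured values. Per 10000 UMIs (unique molecular identifiers, one count per captured RNA molecule) a barcode needed at least 100 of Col2a1 and 10 of Acan, fewer than 100 of Col10a1, fewer than 50 of S100a8, S100a9, C1qa, C1qb and C1qc together, and at least 20 of Saa3, Hp, Lcn2 and Chil1 together. That last sum is called the acute-phase score here. A barcode also needed at least 5000 UMIs in all and fewer than 10 UMIs of Mki67, Top2a, Birc5, Ube2c, Cdk1 and Cenpf. The levels of these genes therefore describe the selection and are no finding. The cells are called acute-phase chondrocytes below, and they are set beside the 1803 chondrocytes of MGJ that met every condition but the score, called other chondrocytes.

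Acute-phase proteins are secreted in large amounts when interleukin-1, interleukin-6 or tumour necrosis factor signals inflammation, mainly by the liver but also by epithelia, neutrophils and connective tissue cells. Serum amyloid A3 (Saa3), haptoglobin (Hp, which binds free haemoglobin), lipocalin 2 (Lcn2, which withholds bacterial siderophores and iron) and chitinase-like 1 (Chil1, a secreted lectin also known as YKL-40) belong to this response. In inflamed cartilage, chondrocytes that receive such signals are known to release matrix metalloproteinases, chemokines and nitric oxide, and to reduce their output of type II collagen and aggrecan.

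The study followed the cartilage-to-bone transition of healing femoral fractures. Callus was taken from wild-type C57BL/6J male mice, 12 weeks old by the study's methods, with a transverse mid-femur fracture held by a needle, at 10 days (n = 5) and 20 days (n = 5). Libraries MGJ and MGJ2 carried the same labels (wild type, femoral fracture model, callus tissue), and neither label gave a day. Cells could not be traced to single mice, so each library counted as 1 sample and its values have no replicate check. Intervals below are exact and cover counting error only. PCR duplicates are already merged in UMIs, but differences between mice are not covered.

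Saa3, Chil1 and Mmp3 are markers of these cells and are shown with the sequence before their start. The sequences come from RefSeq (GRCm38.p6) and end where the first annotated exon begins, with capitals marking every match to TTNNGNAA, the letters bound by C/EBP factors, or TGANTCA, those bound by AP-1, on either strand.
Saa3, serum amyloid A3, chr7:46715701-46715926, minus strand: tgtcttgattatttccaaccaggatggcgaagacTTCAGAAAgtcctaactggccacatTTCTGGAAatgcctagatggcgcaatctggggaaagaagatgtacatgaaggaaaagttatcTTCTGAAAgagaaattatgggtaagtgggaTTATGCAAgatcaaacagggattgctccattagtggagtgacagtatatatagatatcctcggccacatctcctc
Chil1, chitinase-like 1, chr1:134181906-134182155, plus strand: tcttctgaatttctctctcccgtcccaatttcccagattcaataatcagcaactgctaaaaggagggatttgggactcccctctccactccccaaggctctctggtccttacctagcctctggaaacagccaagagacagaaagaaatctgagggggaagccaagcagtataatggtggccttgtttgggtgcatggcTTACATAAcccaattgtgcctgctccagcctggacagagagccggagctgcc
Mmp3, stromelysin 1, chr9:7445572-7445821, plus strand: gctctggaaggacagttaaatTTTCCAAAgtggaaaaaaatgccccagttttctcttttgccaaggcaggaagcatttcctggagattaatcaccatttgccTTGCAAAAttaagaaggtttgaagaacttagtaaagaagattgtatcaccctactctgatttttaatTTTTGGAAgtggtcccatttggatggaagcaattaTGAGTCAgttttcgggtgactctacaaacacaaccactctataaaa
The C/EBP letters occurred 4 times before Saa3, 3 times before Mmp3 and 1 time each before Chil1 and Lcn2, within the 250 bases that precede the RefSeq start. They occurred at least once in 36.9% of the 32851 promoters of the same length, so they are common. AP-1 letters occurred 1 time before Mmp3, at position -46 to -40 from the start, and in 6.75% of all promoters. A motif of NF-kappaB, found in 4.65% of all promoters, was in none of these 4 windows. The Lcn2 window is not printed because it overlaps annotated exons, and no sequence is shown for Hp. A match is a description of the letters and says nothing on binding. On GRCm38, the genes lie at chr7:46711998-46715700 (Saa3), chr8:109575128-109579172 (Hp), chr2:32384633-32388252 (Lcn2), chr1:134182176-134190181 (Chil1) and chr9:7445822-7455975 (Mmp3), all protein-coding in GENCODE M21.

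Library MGJ held 14295 deposited barcodes with 135304426 UMIs, and MGJ2 held 8009 with 61130834. The acute-phase chondrocytes had a median of 24086 UMIs (5062 to 52391), 3815 genes and 3.18% mitochondrial UMIs, against 21507 UMIs, 3758 genes and 3.73% in the other chondrocytes. The libraries shared 19 cell barcodes, and 0 of the acute-phase chondrocytes carried one of them. Scrublet's automatic threshold called 0 of the 13460 barcodes of MGJ a doublet (a barcode holding more than 1 cell), where 10.8% was the expected share, so the caller did not work there and doublets were kept. Among the 1382 barcodes of MGJ with doublet scores above the quantile set by that expected share were 44 of the 126 acute-phase chondrocytes (34.9%) and 198 of the 1803 other chondrocytes (10.98%). The part of doublets in the results below was not tested beyond leaving those barcodes out.

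Levels of cartilage genes that the rule did not use are given to describe the cells. Sox9, the transcription factor that sets the chondrocyte fate, stood at 614 CPM against 170 CPM in the callus fibroblasts with a score of 20 or more (CPM, UMIs per 1000000 UMIs summed over the cells). Comp, cartilage oligomeric matrix protein, stood at 8485 CPM against 380 CPM. Hapln1, which links aggrecan to hyaluronan, stood at 3632 CPM against 28.8 CPM in those fibroblasts. The fibroblasts had to be low in Col2a1 and Acan and the acute-phase chondrocytes high in both, so the selection itself favours these differences. Such levels do not tell a chondrocyte from a barcode that also holds another cell. The fifth marker given for these cells, Mmp3, was not used by the rule and was detected in 71 of the 126 cells, from 0 to 145 UMIs per 10000 with a median of 0.487.

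The score had no gap at the threshold. It ran from 20.1 to 1333 UMIs per 10000 with a median of 39.0, and 64 of the 126 cells lay under 40 while 44 reached 100 or more. The cells just inside the threshold had 20.1, 20.3 and 20.3, and those just outside had 19.9, 19.6 and 19.6. Among the other chondrocytes the median was 0.822, 409 cells were at 0 and 97 lay between 10 and 20. The number of acute-phase chondrocytes thus follows the threshold: 223 cells had a score of at least 10 and 62 a score of at least 40. Of the low-Col10a1 chondrocytes in MGJ, 6.53% (5.47 to 7.73) passed, and of those in MGJ2, 0 of 65, which allows a share of up to 4.62%. The highest score among these 65 cells was 11.5 and their median was 0.275, and the 2 shares are given side by side without a comparison of days.

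**Figure D1:**
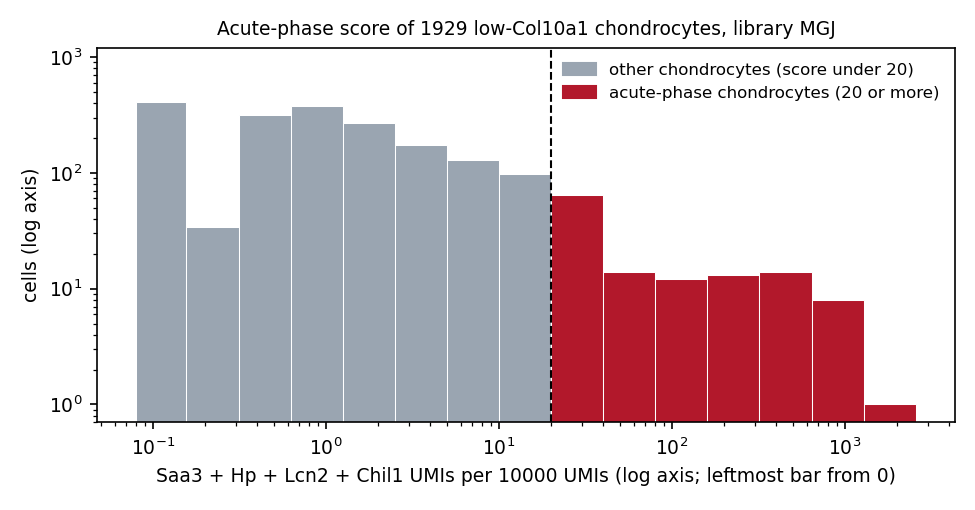
Number of low-Col10a1 chondrocytes of library MGJ (log axis) by acute-phase score, the UMIs of Saa3, Hp, Lcn2 and Chil1 per 10000 UMIs (log axis, with the leftmost bar starting at 0), split at the threshold of 20 (dashed line). The 126 acute-phase chondrocytes (red) continue the tail of the 1803 other chondrocytes (grey) up to a score of 1333.

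The 4 genes of the score were not shared evenly among the cells. Hp supplied 47.6% of the score's UMIs, Lcn2 22.3%, Saa3 15.6% and Chil1 14.5%. Hp led in 52 cells, Lcn2 in 29, Saa3 in 26 and Chil1 in 19, and in 30 cells 1 gene gave over 90% of the score. All 4 genes were detected in 47 cells. Per 10000 UMIs, Hp ran from 0 to 792 with a median of 17.8, Lcn2 from 0 to 257 with a median of 10.8, Chil1 from 0 to 234 with a median of 4.15 and Saa3 from 0 to 449 with a median of 0.763. Across the 126 cells, all of 1 library, Spearman's correlation coefficient was 0.521 between Lcn2 and Chil1 and 0.443 between Hp and Lcn2, against 0.012 between Saa3 and Lcn2 and -0.002 between Saa3 and Chil1. The cells were chosen by the sum of the 4 genes, which by itself shapes these values.

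The mix of the 4 genes varied between cell groups of the callus. The other chondrocytes drew 37.9% of their few score UMIs from Lcn2, 30.4% from Chil1 and 10.1% from Saa3. Hypertrophic chondrocytes drew 35.3% each from Lcn2 and Saa3 and 10.3% from Chil1. In the 327 fibroblasts of MGJ with a score of 20 or more (36.4% of 899), Saa3 gave 64.9% of the score's UMIs and Hp 33.8%, while Lcn2 gave 1.21% and Chil1 0.0521%. Lcn2 stood at 3479 CPM in the acute-phase chondrocytes and 159 CPM in those fibroblasts, and Chil1 at 2271 and 6.86 CPM. Both groups were chosen by the sum of the 4 genes, so these values describe the selected cells and are no finding. Neutrophils and macrophages, which were not chosen by the score, drew 86.7% from Lcn2 and 87.1% from Saa3. Among hypertrophic chondrocytes, which have at least 100 Col10a1 UMIs per 10000, 3 of 438 had a score of 20 or more (0.685%, 0.142 to 1.99), and among cycling chondrocytes 4 of 130 (3.08%, 0.845 to 7.69).

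**Figure D2:**
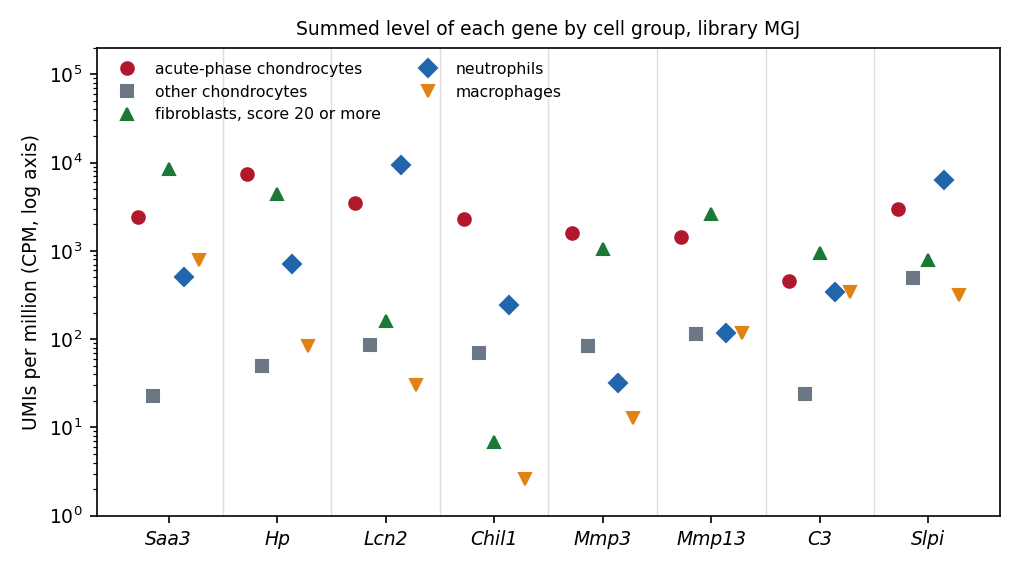
Summed level (CPM, log axis) of the 4 score genes and of Mmp3, Mmp13, C3 and Slpi in 5 cell groups of library MGJ, each point being 1 group. Lcn2 and Chil1 are at 159 and 6.86 CPM in the score-rich fibroblasts against 3479 and 2271 CPM in the acute-phase chondrocytes, whereas Saa3 is higher in the fibroblasts. Both of these groups were chosen by the 4 score genes, whose levels describe the selection.

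Because free RNA in droplets can add UMIs of a gene to cells that do not make it (65.3% of lymphocytes thinned to 2000 UMIs held Col2a1), detection was compared after thinning every cell to 2000 UMIs. Only genes outside the rule are given, since the rule itself sets how often the score genes were found. Mmp3 was found in 36.5% of acute-phase chondrocytes, 6.21% of other chondrocytes and 2.38% of lymphocytes. For C3 the shares were 46.8%, 4.05% and 2.72%, and for Mmp13 40.5%, 9.60% and 5.78%. In fibroblasts with a score of 20 or more, the shares were 40.4% for Mmp3, 58.7% for C3 and 57.2% for Mmp13. Before thinning, Mmp3 was found in 56.4% of acute-phase chondrocytes and 20.1% of the others, at median depths of 24086 and 21507 UMIs, against 2.73% of lymphocytes at 2456 UMIs.

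Next, the genes outside the rule were compared between acute-phase and other chondrocytes as the ratio of summed CPM, with an exact conditional interval. Of 10305 genes with at least 100 UMIs in both groups together, 336 (3.26%) were at least 2-fold higher in the acute-phase chondrocytes and 310 (3.01%) at least 2-fold lower, and no test was possible with 1 library. The whole interval lay at or above 2 for 162 of the higher genes and at or below 0.5 for 16 of the lower ones. The median ratio of all genes was 0.924 (-0.11 on the log2 scale). The counts in the lists below are to be read beside the shares of 3.26% and 3.01%. The share of genes higher was 1.87% without the highest doublet scores and 3.46% without cluster 4 (described below).

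The other acute-phase and complement genes had the highest median ratio of the lists, with 15 of 17 tested genes at least 2-fold higher against 3.26% of all genes, 0 lower and a median ratio of 4.71. Without the highest doublet scores 15 of 16 were at least 2-fold higher, and without cluster 4 (described below) 13 of 15. Complement C3, the central component of the cascade, was detected in 103 of the 126 cells and stood at 461 CPM (438 to 486) against 24.2 (22.7 to 25.7), a ratio of 19.1 (17.6 to 20.8). Factor B (Cfb), which joins C3 in the alternative pathway, stood at 81.0 against 4.05 CPM, 20.0-fold, or 10.6-fold without cluster 4. The classical-pathway proteases C1s1 and C1ra were 6.92-fold and 6.33-fold higher, or 3.42-fold and 2.33-fold without cluster 4. Lbp, which presents bacterial lipopolysaccharide, was found in 111 cells and stood at 550 against 117 CPM, 4.71-fold, or 2.83-fold without cluster 4. Steap4, a metalloreductase, stood at 426 against 80.8 CPM, and Serpina3n, a serine protease inhibitor, at 244 against 51.2 CPM.
The zinc-binding metallothioneins Mt1 and Mt2 were 2.52-fold and 2.55-fold higher, at 3619 and 1671 CPM. Il1rn, the natural antagonist of the interleukin-1 receptor, was 3.02-fold higher and Ptx3, a long pentraxin, 3.27-fold higher. Saa1 had the highest ratio of the list, 151-fold (109 to 214), but came from 14 cells, 31.4% of its UMIs were in 1 barcode, and it was 20.1-fold without cluster 4. Saa1 and Saa3 are close relatives, so reads of one may be counted for the other. Serping1, the C1 inhibitor, was 9.39-fold higher, yet its ratio was 0.920 once the cells of cluster 4 were left out. Several of these genes were higher still in the fibroblasts with a score of 20 or more. There C3 stood at 946 CPM, Cfb at 290, C1s1 at 374, C1ra at 190 and Serping1 at 1029 CPM. Steap4 and Saa1 were lower in those fibroblasts than in the acute-phase chondrocytes, at 78.0 and 5.52 CPM.

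Among matrix proteases and their inhibitors, 7 of 19 were at least 2-fold higher and 0 lower, with a median ratio of 1.86, or 1.31 without cluster 4. Mmp3, stromelysin 1, which cleaves proteoglycans and activates other metalloproteinases, stood at 1593 CPM (1549 to 1638) against 82.7 (79.9 to 85.6), a ratio of 19.3. Mmp13, the collagenase that cuts type II collagen, stood at 1417 against 113 CPM, 12.5-fold, and was found in 87 of the 126 cells. The fibroblasts with a score of 20 or more stood at 1059 CPM of Mmp3 and 2614 CPM of Mmp13. The largest single contributions were 9.59% of Mmp3 and 8.29% of Mmp13 from 1 barcode. The aggrecanases were closer to even, with Adamts5 at 234 against 121 CPM (1.94-fold) and Adamts4 at 21.6 against 11.6 CPM (1.86-fold). Cathepsin L (Ctsl) was 2.40-fold higher, or 1.85-fold with a score threshold of 10. Among their inhibitors Timp1 differed little, 1781 against 1687 CPM, and Timp3 was lower at 472 against 743 CPM, a ratio of 0.635.

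Of the chemokines, 11 of 16 were at least 2-fold higher and 0 lower, with a median ratio of 2.87. Without the highest doublet scores 7 of 13 were, and without cluster 4, 6 of 13. The neutrophil attractants Cxcl1 and Cxcl2 were already abundant in the other chondrocytes, at 4220 and 1723 CPM, and reached 6415 and 4186 CPM in the acute-phase cells. Ccl2, which draws monocytes, stood at 2557 against 772 CPM, 3.31-fold. Ccl20 was 3.95-fold higher but came from 23 cells with 32.9% of its UMIs in 1 barcode, and 42.7% of the Ccl5 UMIs and 72.5% of the Cxcl9 UMIs came from 1 barcode each. Cxcl9 had 0 UMIs left in these cells without the highest doublet scores. Cxcl12, the niche chemokine of marrow stroma, stood at 70.5 against 4.75 CPM (14.8-fold) in 18 cells, with 22.2% of its UMIs in 1 barcode. Its ratio turned to 0.485 when the highest doublet scores were left out and to 0.824 without cluster 4.

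Of the cytokines and their receptors, 8 of 27 were at least 2-fold higher and 0 lower, with a median ratio of 1.25. Without the highest doublet scores 3 of 26 were higher and the median was 0.998. Tnf stood at 247 against 72.0 CPM (3.42-fold), Il6 at 200 against 52.3 CPM (3.82-fold) and Il1b at 210 against 59.98 CPM, each in 50 to 53 of the 126 cells. A single barcode held 22.2% of the Il6 UMIs, 21.0% of those of Il1b and 10.1% of those of Tnf. The ratio of Il1b was 0.902 without the highest doublet scores and 1.15 without clusters 6 and 7. Csf3, the growth factor of neutrophils, was 6.38-fold higher in 20 cells with 28.8% of its UMIs in 1 barcode, and its ratio was 1.01 without the highest doublet scores. Il11, a cytokine of the interleukin-6 family, was instead at 874 against 1130 CPM, a ratio of 0.773. The receptor genes lay on both sides of 1. Il1rap, the accessory chain of the interleukin-1 receptor, was 2.30-fold higher at a low level (12.7 against 5.53 CPM) and Tnfrsf1b 1.94-fold (59.1 against 30.5 CPM). Il6st stood at 80.3 against 68.5 CPM and Tnfrsf1a at 63.0 against 57.3 CPM, while Tnfrsf11b, the decoy receptor osteoprotegerin, had a ratio of 0.677.

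Prostaglandin and nitric oxide genes had 6 of 12 at least 2-fold higher and 0 lower, or 4 of 11 and 1 without the highest doublet scores. Nos2, the inducible nitric oxide synthase, stood at 452 against 154 CPM (2.94-fold) and was found in 93 cells, and Gch1, which makes its cofactor tetrahydrobiopterin, at 81.0 against 32.3 CPM. The terminal prostaglandin E synthase Ptges was 2.08-fold higher (1.79-fold with a score threshold of 10), whereas cyclooxygenase 2 (Ptgs2) was even, 1946 against 2139 CPM, and prostacyclin synthase (Ptgis) was at 79.7 against 138 CPM.

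Among NF-kappaB and C/EBP response genes 3 of 25 were at least 2-fold higher. Ratios above 1 were found for 24 of the 25, and the median was 1.41. The number at least 2-fold higher was 9 of 25 without cluster 4 and 7 of 25 without the highest doublet scores. With a score of at least 40 it was 1 of 25, beside 3.55% of all genes. In that setting 17 of 25 had ratios above 1, 8 were below 1 and the median was 1.19. The 3 genes at least 2-fold higher among all acute-phase chondrocytes were Sod2, Tnip1 and Icam1. Sod2, the mitochondrial superoxide dismutase, stood at 882 against 218 CPM (4.04-fold). Tnip1 was 2.21-fold higher, or 1.70-fold without Lcn2 in the score. The adhesion molecule Icam1 was 2.15-fold higher, or 1.47-fold among cells with a score of at least 40. The inhibitor Nfkbia stood at 738 against 571 CPM, and the transcription factors Cebpb and Cebpd were 1.39-fold and 1.60-fold higher. Of the antioxidant genes 2 of 11 were at least 2-fold higher. They were Hmox1, which degrades haem (2.57-fold), and the cystine carrier Slc7a11 (2.98-fold), and 0 of 11 were without the highest doublet scores. Interferon-response genes had 3 of 13 higher, or 1 of 12 without those barcodes, led by the GTPase Gbp2 at 6.25-fold, and immediate-early and heat shock genes 1 of 18, with Fos at 355 against 324 CPM.

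**Figure D3:**
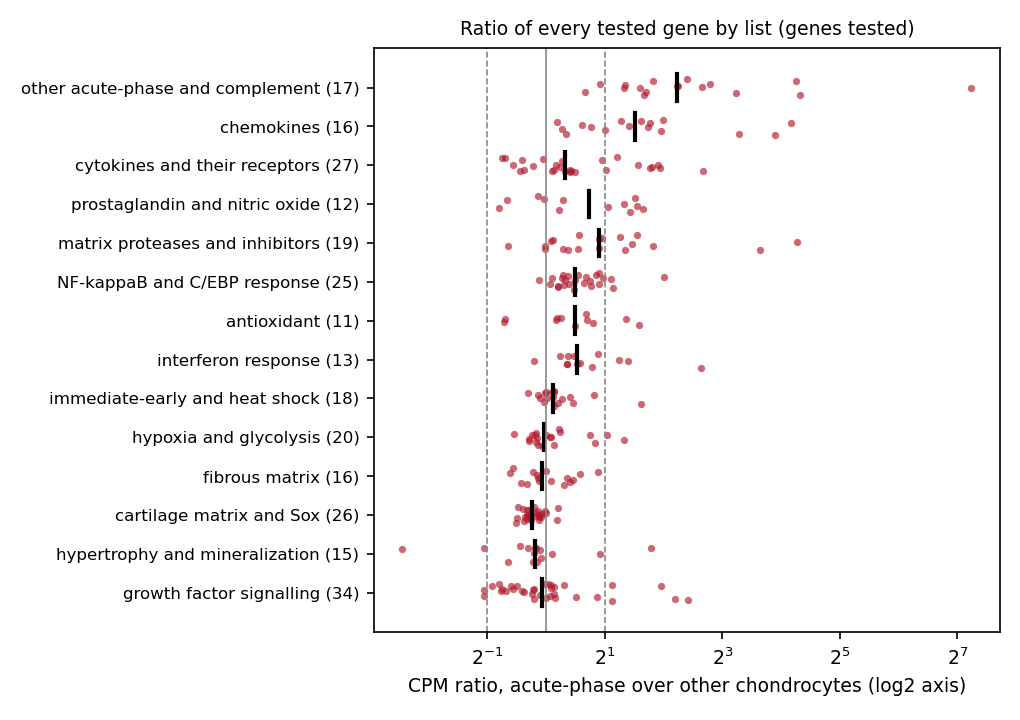
Ratio of CPM in acute-phase over other chondrocytes (log2 axis) for each tested gene (point) in 14 lists, with each list's median as a black bar and dashed lines at 2-fold in either direction. The other acute-phase and complement genes have a median of 4.71 and the cartilage matrix genes one of 0.852.

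Cartilage matrix genes had a median ratio slightly below 1. It lay below the median of all genes as reported, but above that median without cluster 4 or without the highest doublet scores. Of 26 tested genes 0 passed 2-fold in either direction, 24 had ratios below 1 and the median was 0.852, against 0.924 over all genes. Without cluster 4, 14 of 26 were below 1 and the median was 0.991, against 0.918 over all genes, and without the highest doublet scores 17 of 26 and 0.927, against 0.878. Hapln1 stood at 3632 against 4520 CPM (0.803), Matn3 at 2797 against 3574 CPM (0.783), Col11a1 at 7420 against 9267 CPM (0.801) and Sox9 at 614 against 857 CPM (0.717). Col2a1 and Acan, which the rule used, stood at 51937 against 57447 CPM and 3717 against 5279 CPM. The fibrous matrix genes lay on both sides of 1, with Dcn (decorin) 1.84-fold and Col3a1 1.38-fold higher and Col1a1 at 0.803.

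Hypertrophy genes were near or below the level of the other chondrocytes, with a median ratio of 0.879 against 0.924 over all genes. Of 15 tested, 1 was at least 2-fold higher and 2 lower, beside 3.26% and 3.01% of all genes. Among cells with a score of at least 40, 7 of 15 were at least 2-fold lower and the median was 0.554. Over all genes at that threshold, 856 of 10305 were lower and the median was 0.879. The exception in the list was Spp1 (osteopontin), at 12760 against 3716 CPM, 3.43-fold. Alpl, alkaline phosphatase, had a ratio of 0.740, Pth1r, the receptor for parathyroid hormone-related protein, 0.640 and Mef2c, which drives hypertrophy, 0.482. Col10a1 itself was capped by the rule. Growth factor genes had 5 of 34 higher, with ratios of up to 5.36, and 2 lower, Bmp6 at 0.479 and the BMP antagonist Nog at 0.482. The counts were 0 and 3 without cluster 4 and 0 and 8 without the highest doublet scores. Over all genes, 558 of 10026 were lower without cluster 4 and 669 of 9818 without the highest doublet scores. Bmp6, Nog and Mef2c rested close to the 0.5 limit and reached 0.575, 0.707 and 0.562 under alternative settings. Inhba, a subunit of activin A, stood at 1055 against 1989 CPM, a ratio of 0.530. A list of 7 genes on mechanosensing and senescence in the study, Piezo1, Piezo2, Trpv4, Apoe, Cdkn1a, Cdkn2a and Trp53, had ratios from 0.534 to 0.914. Of these, 0 passed 2-fold in either direction, and their median was 0.825 against 0.924 over all genes. Without cluster 4, 5 of 7 were below 1, 1 of them at least 2-fold, with a median of 0.769 against 0.918. The mechanosensitive channel Piezo1 stood at 83.9 against 110 CPM (0.761, 0.669 to 0.864) and Apoe at 96.7 against 117 CPM.

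By size of ratio, the remaining genes at the top were Slpi, a secreted leukocyte protease inhibitor found in 121 of the 126 cells (2950 against 490 CPM, 6.02-fold), Fabp4, a fatty acid carrier (302 against 42.9 CPM), Trf, transferrin (48.7 against 6.46 CPM), Slc39a8, a zinc importer (56.8 against 8.72 CPM), Cyp7b1, an oxysterol hydroxylase (34.6 against 5.68 CPM), Plac8, Wfdc17 and Cxcl14. Without cluster 4 the ratios of Trf, Slc39a8, Cyp7b1 and Cxcl14 were 3.38, 3.53, 3.56 and 3.17. Each of these genes except Slc39a8 was higher in another cell group of MGJ. Slpi stood at 6358 CPM and Wfdc17 at 3402 CPM in neutrophils, and Trf at 275 CPM in macrophages. In the fibroblasts with a score of 20 or more, Fabp4 stood at 307, Plac8 at 469, Cxcl14 at 664 and Cyp7b1 at 57.4 CPM. Slc39a8 stood at 9.37, 0.849 and 5.77 CPM in these fibroblasts, neutrophils and macrophages. Wfdc17 had 40.1% of its UMIs in 1 barcode, and the ratios of Wfdc17 and Plac8 were 1.26 and 1.23 without the highest doublet scores. At the other end Lypd3 had 0 UMIs against 105 (2.64 CPM) in the larger group of other chondrocytes. Dmp1, an osteocyte matrix protein, stood at 1.96 CPM (6 UMIs in 4 cells) against 10.7 CPM, a ratio of 0.184. It was found in 3.2% against 4.3% of cells. Rgs5, a pericyte gene, stood at 0.98 CPM (3 UMIs) against 10.3 CPM, a ratio of 0.095 (0.717 without cluster 4), and was found in 2.4% against 3.7% of cells. Fth1, the ferritin heavy chain that stores iron, was singled out after its values were seen. It was in all 126 cells at 24407 against 6714 CPM (3.64-fold), while the light chain Ftl1 differed less, 2337 against 1814 CPM. Fth1 was higher still in neutrophils and macrophages, at 80322 and 53798 CPM, and stood at 18491 CPM in the fibroblasts with a score of 20 or more.

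Within the acute-phase chondrocytes, levels were then followed over 3 ranges of the score that were set for description only, holding 72 cells (20 to 50), 20 cells (50 to 200) and 34 cells (200 or more). Mmp3 stood at 279, 2739 and 4017 CPM over these ranges. Mmp13 stood at 485, 1428 and 3672 CPM, and C3 at 174, 608 and 1060 CPM.
These genes were therefore most abundant where the score was highest. Spp1 was different, at 4723 and 5631 CPM and then 36985 CPM in the top range. Fth1 was graded also below the threshold, from 5443 CPM at scores under 1 to 11687 CPM at 10 to 20, and 16889, 27534 and 40554 CPM above it. Il6 and Csf3 were lowest in the top range. Il6 stood at 180, 528 and 30.7 CPM, and Csf3 at 70.5, 147 and 5.34 CPM. Hapln1 and Acan were also lowest there, with Hapln1 at 4516, 3127 and 1824 CPM and Acan at 4263, 3338 and 2646 CPM. Median depth was 24686, 25545 and 21938 UMIs. The share of cells above the doublet-score quantile was 33.3%, 55.0% and 26.5%.

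**Figure D4:**
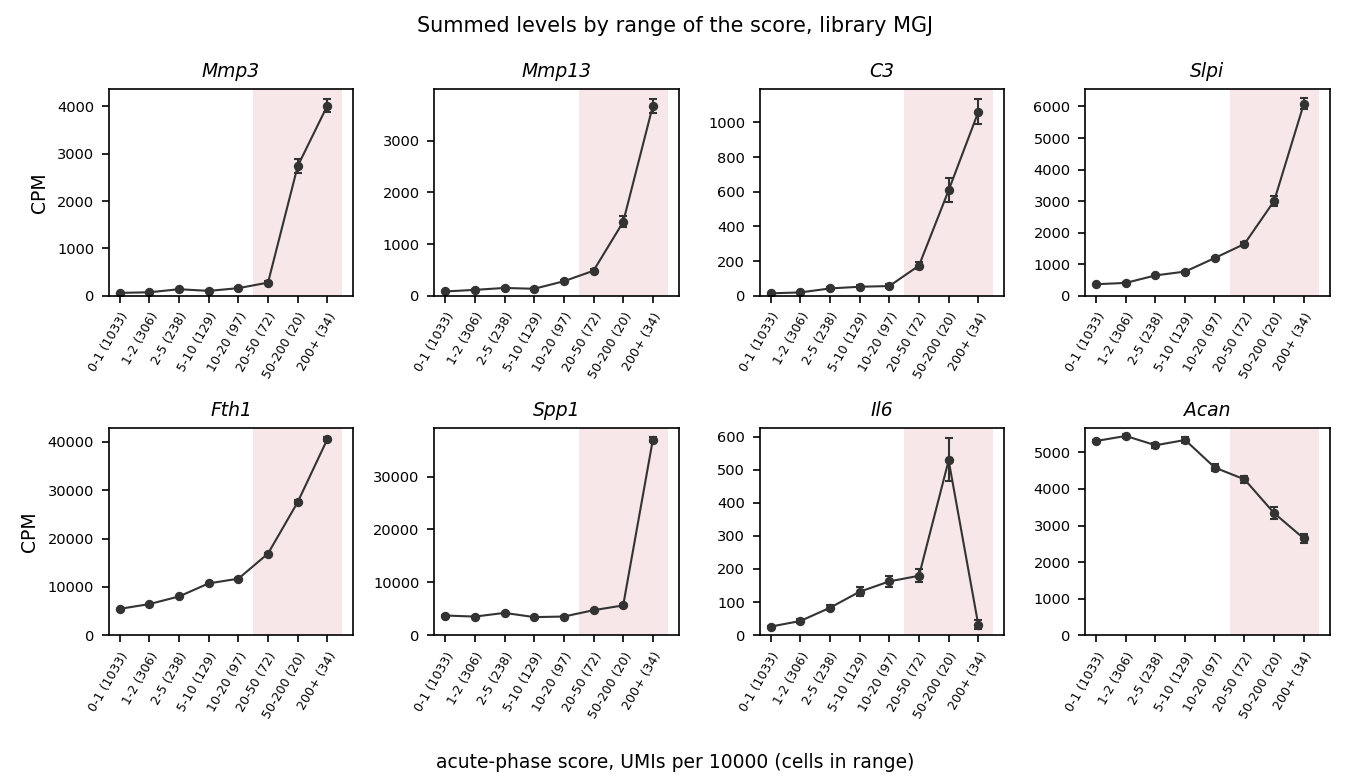
CPM (linear axes from 0) of 8 genes over 8 ranges of the acute-phase score, with the number of cells in each range in brackets, exact 95% Poisson intervals as bars and the acute-phase chondrocytes shaded. Mmp3 reaches 4017 CPM in the top range, where Il6 is at 30.7 CPM and Acan at 2646 CPM.

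To see where these cells fell among chondrocytes, all 1929 low-Col10a1 chondrocytes of MGJ were clustered without the genes of the rule and without Mmp3. Cluster 4, 153 cells led by Tagln, Rarres2, Cxcl12, Mfap5 and Dpt, genes of contractile and fibrous connective tissue cells, held 52 of the 126 (41.3%) and 26 of the 34 with a score of 200 or more. Cluster 2, led by Il18rap, Csf2 and Il6, held 26. Cluster 6, led by macrophage genes such as Aif1 and Ms4a7, held 14 of its 68 cells, and cluster 7, led by Ccl4 and Ccl3, held 6 of 59. Cluster 1, led by Igfbp3 and Tfpi2, held 0 of 389 cells, which allows a share of up to 0.771%.

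**Figure D5:**
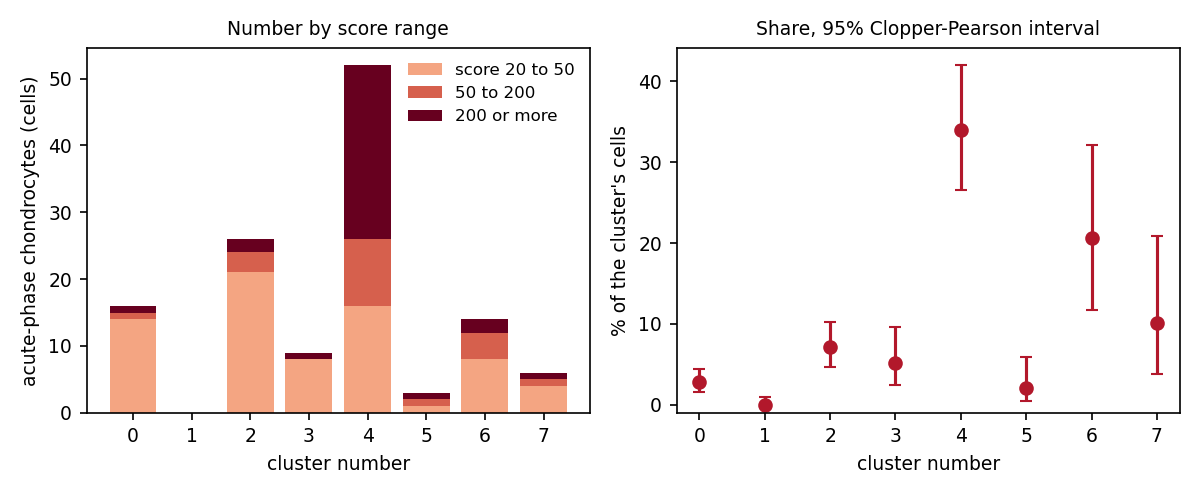
Left, number of acute-phase chondrocytes in each of 8 clusters of low-Col10a1 chondrocytes, stacked by score range, and right, their share of each cluster's cells with the exact 95% interval. Cluster 4 holds 52 of them, 26 with a score of 200 or more, and cluster 1 holds 0.

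The 52 cells in cluster 4 differed with the score. The 26 with a score of 200 or more had low levels of most of the cluster's first leading genes, with 0 UMIs of Cxcl12, 5.36 CPM of Tagln and 7.14 CPM of Mfap5, near the 2.06, 3.37 and 3.64 CPM of other chondrocytes outside the cluster. Serping1, another leading gene, was at 66.0 CPM, between the 6.77 CPM outside the cluster and the 110 CPM of its other cells, and Dpt was at 5.36 CPM (3 UMIs) against 1.39 CPM outside. These cells stood at 4648 CPM of Mmp3 and 38985 CPM of Spp1. The 26 with a lower score carried the leading genes, with 289 CPM of Cxcl12, 238 CPM of Tagln, 220 CPM of Mfap5, 446 CPM of Serping1 and 8478 CPM of Col3a1, and with 1711 CPM of Mmp3 and 5985 CPM of Spp1. Of the former 5 (19.2%) and of the latter 18 (69.2%) were above the doublet-score quantile. Outside cluster 4, the 8 cells with a score of 200 or more had 31047 CPM of Spp1 and 2146 CPM of Mmp3. Without cluster 4, Mmp3 and C3 were 8.09-fold and 9.67-fold higher than in the other chondrocytes, Mmp13 4.75-fold and Spp1 2.01-fold.

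Markers of other cells were measured in the same way. The neutrophil list holds S100a8 and S100a9, and the macrophage list C1qa, C1qb and C1qc. The rule capped these genes in both groups, so the selection itself limits the summed levels of these lists. The 14 neutrophil markers summed to a median of 3.08 per 10000 (0.395 to 108) in the acute-phase chondrocytes and 3.04 (0 to 165) in the others, with Elane at 0. Of these, 3 of 5 tested were at least 2-fold higher (2 of 5 without the highest doublet scores). The 12 macrophage markers summed to a median of 1.14 (0 to 79.7) against 0.894 (0 to 121), none at 0, and 7 of 9 tested were at least 2-fold higher (0 of 6 without the highest doublet scores), with Tyrobp at 81.0 against 33.9 CPM. The ratio of Tyrobp was 1.03 without clusters 6 and 7 and 0.943 without the highest doublet scores, while C3 and Mmp3 without clusters 6 and 7 were 23.7-fold and 20.1-fold higher. The 4 tested haemoglobin genes were 2.98-fold to 4.77-fold higher, but 91.4% to 97.5% of their UMIs came from 1 barcode. Lymphocyte and endothelial markers had a median of 0 in both groups, with Ms4a1, Nkg7 and Igll1 at 0, and osteoblast markers were at 24.5 against 34.7 per 10000, with Car3 at 0. The 6 osteoclast markers had a median of 0.809 against 0.830, with Dcstamp at 0, and 1 of 3 tested was at least 2-fold higher. Without clusters 6 and 7, 2.42% of all genes were at least 2-fold higher. In that setting 0 of 6 tested macrophage markers, 2 of 5 neutrophil markers and 15 of 16 of the other acute-phase and complement genes were. The part of neutrophil and fibroblast RNA in the ratios was not tested.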

How the data were processed

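Single cells of mouse fracture callus were captured with 10x Chromium chemistry. The authors deposited, for each library, a matrix of whole-number UMI counts per gene and barcode, whose file headers name Cell Ranger 4.0.0, with GRCm38 as the build in the submitters' processing notes. These counts were used as deposited. The labels place neither library in a group, so no groups were compared, and the members and gene lists were chosen with earlier results of these data known.

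Barcodes with at least 200 genes and at most 20% mitochondrial UMIs were kept. UMIs were summed over cells and given per 1000000 (CPM). Ratios carry exact conditional binomial intervals, CPM exact Poisson intervals and shares Clopper-Pearson intervals, all 95%. A share of 0 allows 3 counts of the total. Genes needed at least 100 UMIs in both groups together. No pseudocount was used. Ratios were checked on simulated counts with known fold changes. These were drawn independently for each gene, so the check does not cover UMIs gathered in single barcodes.

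Fibroblasts had at least 50 Col1a1 and Col3a1 UMIs per 10000, fewer than 100 of Col2a1 and 10 of Acan, and few myeloid, endothelial or cycle genes. Neutrophils had at least 200 of S100a8 and S100a9, macrophages at least 30 of C1qa, C1qb and C1qc, and lymphocytes at least 5 of Cd79a, Cd79b, Cd3d and Cd3e, all with fewer than 100 of Col2a1. Clusters used Leiden at resolution 0.5 on 15 neighbours, 30 components and 2000 variable genes (scanpy 1.11.5, leidenalg 0.10.2), and the share of doublets given to Scrublet grew with the number of barcodes. Calculations ran in Python 3.11.15 with scipy 1.17.1, numpy 2.4.6 and pandas 2.3.3. Gene positions are those of GENCODE M21, and promoters those of RefSeq, GRCm38.p6.

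The genes named are those of the lists and the 20 in each direction with the largest ratio among genes with at least 100 UMIs in the group where they are higher, leaving out mitochondrial genes, gene models and the genes of the rule. Fth1 and Ftl1 are the exceptions. The score ranges were set in this work. Alternatives moved the score threshold, the score's genes, the depth, mitochondrial and myeloid limits, the comparison group, the weighting, the denominator, thinning and the minimum UMIs per gene. Leaving out the highest doublet scores, cluster 4, or clusters 6 and 7 was chosen after seeing the data.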

Additional observations from a re-analysis of the deposited data

Results flagged for a closer look

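Outside the 126 cells, 9 barcodes of library MGJ met every other condition, the score included, but had fewer than 5000 UMIs, so the comparisons above do not use them. They were 9 of the 90 low-Col10a1 chondrocytes of MGJ with fewer than 5000 UMIs. Among those with at least 5000 UMIs, 126 of 1929 (6.53%) reached the score threshold. Fewer UMIs of the score genes are enough to reach that threshold in shallow barcodes. The part of free RNA in the scores of these 9 barcodes was not tested, and no test was made of their number. A further 27 barcodes met the rest of the rule but had myeloid genes at 50 or more per 10000. With a minimum of 2000 UMIs in place of 5000, the number of acute-phase chondrocytes was 133.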

How the results depend on the processing

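The number of acute-phase chondrocytes was 223 in MGJ and 1 in MGJ2 with a score of at least 10, 62 in MGJ with a score of at least 40, and 82 without the highest doublet scores. It lay between 97 and 133 in MGJ, and at 0 in MGJ2, without Lcn2 or Saa3 in the score and under the other limits on depth, mitochondrial and myeloid UMIs. The count of genes at least 2-fold higher (336) became 184 without the highest doublet scores, 142 with every cell thinned to 5000 UMIs, 121 with at least 500 UMIs per gene and 1967 with no minimum. The count of genes at least 2-fold lower (310) became 166 at a score of 10, 856 at 40, 470 without Saa3, 669 without the highest doublet scores, 45 and 758 at these same gene minimums, and 558 without cluster 4. The cause of these shifts was not tested, apart from the gene minimums, which change how many genes enter. Among 85 genes, 735 of 784 recomputed ratios of genes that were at least 2-fold apart stayed so on the same side. Of these 784, the ratios that crossed 1 included those of Hbb-bs (0.104 at a score of 40, 0.475 without the highest doublet scores) and Cxcl12 (0.485 without those barcodes, 0.824 without cluster 4). The others were Tyrobp (0.943), Il1b (0.902) and Cxcl9 (0, no UMIs left), all 3 without the highest doublet scores, and Serping1 (0.920 without cluster 4). Among all 1190 recomputed ratios of the 85 genes, 1163 stayed on the same side of 1. Removing barcodes that Scrublet called gave no value, since it called none in MGJ.

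No paired analysis was possible because the labels give no replicate numbers and 1 library held every acute-phase chondrocyte, which also left no replicate to leave out. With 3062750 UMIs in the acute-phase cells, depth limits mainly the scarce genes: of 310 lower genes, 235 had a whole interval below 1.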

Other observations

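Genes of the superficial and articular-like list lay on both sides of the other chondrocytes. Of 15 tested, 4 were at least 2-fold higher and 2 lower. The higher ones were Gas1, a membrane protein that binds hedgehog ligands (25.8 against 8.37 CPM), the proteoglycan Vcan (46.0 against 15.2 CPM), Cilp (26.8 against 9.15 CPM, in 12 cells) and the secreted chaperone Clu (72.5 against 35.1 CPM). The lower ones were the transcription factor Erg (5.22 against 13.6 CPM) and the Wnt antagonist Sfrp5 (16.7 against 39.6 CPM). Prg4, the lubricant of joint surfaces, stood at 45.1 against 29.6 CPM. Without cluster 4 the list had 2 genes higher and 4 lower, and a median ratio of 0.799 in place of 1.39, and without the highest doublet scores 1 higher and 3 lower, with a median of 1.02.

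Of the hypoxia and glycolysis genes, 2 of 20 were at least 2-fold higher, against 3.26% of all genes. They were Egln3 (13.4 against 5.35 CPM) and Adm (10.1 against 4.93 CPM). The glycolytic enzymes were close to the other chondrocytes, with Ldha at 613 against 700 CPM and Pgk1 at 548 against 601 CPM.

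In the 65 low-Col10a1 chondrocytes of MGJ2, Cxcl1 stood at 93.2 CPM, Cxcl2 at 92.7 CPM, Ccl2 at 2.99 CPM (6 UMIs) and Nos2 at 0.996 CPM (2 UMIs). In the other chondrocytes of MGJ, which also lacked a high score, these genes stood at 4220, 1723, 772 and 154 CPM. The libraries are 1 sample each, and the difference was not tested.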
